A study of Arabidopsis thaliana with 12 samples.

Results

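Body-methylated protein-coding genes were chosen by their CpG methylation level in 1 pooled table of *Arabidopsis thaliana* leaf DNA. A gene was taken when it lay on chromosomes 1 to 5 in the RefSeq annotation of TAIR10.1, had at least 20 covered CpG cytosines between its annotated start and end, and had a body level from 10% to 60%. The body level is the number of methylated reads over all reads at those cytosines. Of 27444 protein-coding genes, 26378 had at least 20 covered cytosines, and 9696 of these were in the range, which is 36.8% of the genes that could be called. A further 15675 genes were below 10% and 1007 were above 60%. Another 884 genes had 1 to 19 covered cytosines and 182 had none, so they were not classed, although 56 of the 884 had a level in the range.

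The study used leaves of ecotype Col-0 (spelled Col-O in the labels) from untreated plants (Control), from plants given salicylic acid conjugated to chitosan nanoparticles (SA-CNPs), and from plants inoculated with the biotrophic powdery mildew fungus *Podosphaera xanthii* (pathogen). The methods of the paper describe the material as young plants with their roots cut off. The paper also reports plants given both treatments, which are not among these groups. Each of the 3 groups had 4 libraries, made as pairs a and b from 2 plant samples, and all 12 came from enzymatic methyl-seq, in which enzymes convert unmethylated cytosines and a C that remains in a read is counted as methylated. The CpG table pools libraries that the sources used here do not name. It is therefore 1 sample of unstated condition, without replicate error, and no groups were compared from it. The name of the table resembles those of the SA-CNPs libraries. No condition was assigned on that ground, but the levels given here may describe treated plants alone.

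Gene body methylation in *Arabidopsis* is CG methylation inside transcribed genes, found mostly in genes that are expressed at moderate levels in many tissues. It is copied to the new DNA strand after replication by the methyltransferase MET1, with the help of VIM proteins, which bind CpG sites methylated on a single strand. Unlike transposons, these genes largely lack CHG and CHH methylation, partly because the histone demethylase IBM1 keeps the mark that recruits the CHG methyltransferase CMT3 out of genes. What the methylation does for the gene is debated.

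The table covered 98.2% of 5567714 nuclear CpG cytosines, at a median of 58 reads and a level of 26.6%. In the 9696 genes, 1506988 cytosines were covered, also at a median of 58 reads (5th to 95th percentile 38 to 76), and 4 genes had a median depth of more than 116 reads. The 95% Wilson interval of a body level had a median width of 0.890 percentage points on each side (0.0539 to 3.63). All intervals given here cover counting error only and treat the calls within a read as independent. The levels chose the genes, and the positions inside the body come from the same reads, so both are given as descriptions without a test.

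The range was filled mostly from its lower side. Over all reads of these genes, 25864078 of 92119033 were methylated, a pooled level of 28.1%, against 2.21% in the genes below 10% and 78.5% in those above 60%. The median gene was at 23.8% (quartiles 16.2% to 33.9%). From 10% to 15% lay 1983 genes (20.5%), and the number fell with every step of 5 percentage points, to 138 (1.42%) from 55% to 60%. The level is a property of the whole body, and a few long methylated stretches or many short ones give the same value.

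The genes next to the limits differed from each other by less than their counting intervals. Just inside 10% were AT3G49840 (10%, 569 of 5690 reads, 95% interval 9.25% to 10.8%), ZYP1b, a protein of the synaptonemal complex (10.0009%, 1176 of 11759 reads), and AT1G27200 (10.001%, 956 of 9559 reads). Just below it were TT8, a transcription factor of flavonoid pigment synthesis (9.999%, 1026 of 10261 reads), ABAP1 (9.998%, 1237 of 12373 reads) and HISN5B, an enzyme of histidine synthesis (9.997%, 610 of 6102 reads). At the upper limit, AT3G44780, DCL1, which cuts microRNA precursors, and AT3G45510 (59.9% each) were inside, and AT3G56670 (60.04%), AT3G19560 (60.1%) and AT4G11380 (60.2%) were outside. The interval of the level crossed 10% in 314 of the chosen genes and 60% in 22.

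Body-methylated genes were long. Their median length was 3014 bp (quartiles 2253 to 4081 bp, range 198 to 27265 bp), against 1757 bp in the genes below 10% and 1076 bp in those above 60%. They held a median of 143 covered CpG cytosines, against 98 and 56. Per kb of body, however, they were poorer in CpG cytosines than the genes below 10%, with a median of 45.7 against 54.9. The gap was smaller between genes of like length. From 3000 to 4000 bp, the medians were 39.2 against 42.6 in the centre of the body and 50.9 against 54.0 in its outer parts. In longer genes the outer parts were not poorer, at 49.0 against 48.7 from 4000 to 6000 bp and 45.8 against 42.6 over 6000 bp. The centre was still poorer there, at 36.3 against 40.5 and 34.5 against 36.3.

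The share of genes that were body-methylated rose with each length class. It was 7.10% of 3464 genes up to 1 kb, 16.6% from 1 to 2 kb, 42.7% from 2 to 3 kb and 62.5% from 3 to 4 kb. It reached 74.7% from 4 to 6 kb, and 771 of 880 genes (87.6%) over 6 kb. Length and level are linked by construction where the ends are unmethylated, because a long body dilutes them less. The level in the 500 bp at the middle of the body, taken over all genes with at least 8 covered cytosines there, is tied to length as well, since the middle of a short gene lies near its ends. The middle was at 25% or more in 16.7% of genes up to 1 kb, 14.0% from 1 to 2 kb, 33.8% from 2 to 3 kb, 50.2% from 3 to 4 kb, 59.5% from 4 to 6 kb and 76.2% over 6 kb. What part of this rise goes with the distance of the middle from the ends was not tested.

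Within the body-methylated genes, length went with level as well. The median body level was 18.8% from 1 to 2 kb, 20.5% from 2 to 3 kb, 24.3% from 3 to 4 kb, 29.9% from 4 to 6 kb and 40.04% over 6 kb, and 21.8% in the 246 genes up to 1 kb. The 369 genes at 50% to 60% had a median length of 4698 bp, against 2584 bp for the 3695 genes at 10% to 20%.

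Methylation sat in the interior of the body. The annotation used here gives no strand, so that positions run from the lower to the higher coordinate, and transcription start and end cannot be told apart. A lean toward either would be evened out over genes of both strands. The likeness of the lower and the higher side is therefore no result about the genes. In 20 equal bins of the body, the level over reads was 4.604% in the first bin, rose to 45.1% in the bin from 50% to 55% of the length, and was 5.22% in the last. The median gene was at 0.194% in the first bin, 40.7% in the bin from 50% to 55% and 0.188% in the last, and the gene quartiles in that middle bin, 0.485% and 71.1%, show how widely single genes differed. In the genes below 10% the 20 bins stayed between 1.03% and 3.01%. In the genes above 60% the level over reads was 71.5% in the first bin and 68.7% in the last, below a highest bin of 86.3%. Their median gene hardly differed along the body, at 88.4% in the first bin, 89.7% in the bin from 50% to 55% and 88.3% in the last. Their ends were thus also heavily methylated.

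**Figure D1:**
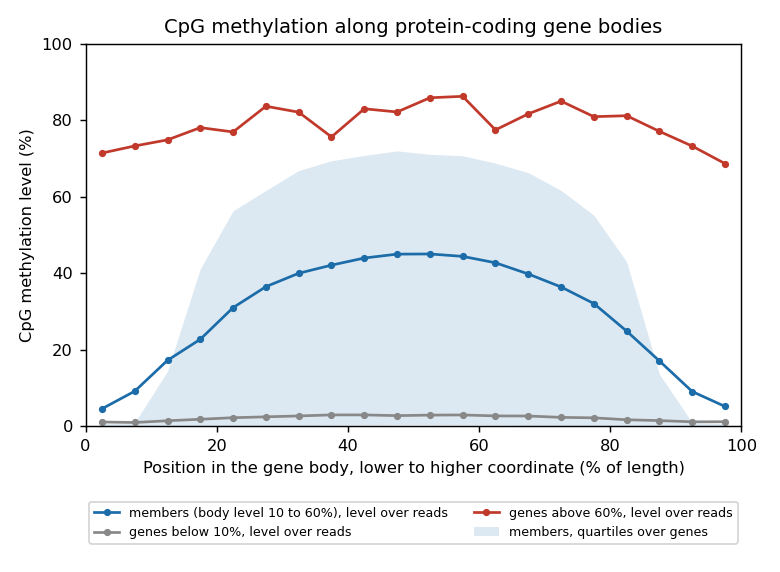
CpG methylation level (%, y axis) in 20 equal bins of the gene body (x axis, % of length from the lower to the higher coordinate), over summed reads of the 9696 body-methylated genes (blue), the 15675 genes below 10% (grey) and the 1007 genes above 60% (red). The shaded band spans the quartiles over single body-methylated genes. The blue line forms an arch from 4.604% in the first bin to 45.1% in the middle and 5.22% in the last. The grey line has a much lower arch, from 1.03% to 3.01%, and the red line lies between 68.7% and 86.3%.

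Measured in base pairs rather than in fractions of the length, the rise from the ends began earlier in shorter genes, and the classes from 3 kb upwards drew level farther in. In the genes over 2 kb, the mean level of the CpG cytosines was 3.23% in the first 200 bp from the lower coordinate, 8.09% from 200 to 400 bp, 17.0% from 400 to 600 bp and 26.2% from 600 to 800 bp. From 400 to 600 bp it was 20.5% in genes of 2 to 3 kb, 16.4% in genes of 3 to 4 kb, 14.0% in genes of 4 to 6 kb and 12.4% in genes over 6 kb. From 600 to 800 bp these classes were at 29.2%, 25.8%, 23.3% and 21.9%. From 1000 to 1200 bp the classes from 3 kb upwards were at 38.2%, 39.1% and 37.9%. From 1600 to 1800 bp, genes of 4 to 6 kb were at 48.05% and genes over 6 kb at 51.9%, and the latter reached 56.3% at 2800 to 3000 bp.

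In the genes over 2 kb, the lowest point lay inside the gene and not outside it. In the 200 bp just outside the lower coordinate the mean was 5.80%, above the 3.23% of the first 200 bp inside, and it rose outwards to 14.1% at 400 to 600 bp and 18.04% at 1000 to 1200 bp. Genes of 1 to 2 kb were higher at the end and had no such low point inside. At their lower coordinate the mean was 10.3% both just outside and in the first 200 bp inside, and at their higher coordinate 9.84% outside and 11.04% inside. Weighted by reads, where a few deep loci count most, the lower side was at 8.35% outside and 17.5% inside and the higher side at 18.6% and 18.3%, so that no direction can be given for this class. The outside values include neighbouring genes and transposons and were not used to choose the genes.

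**Figure D2:**
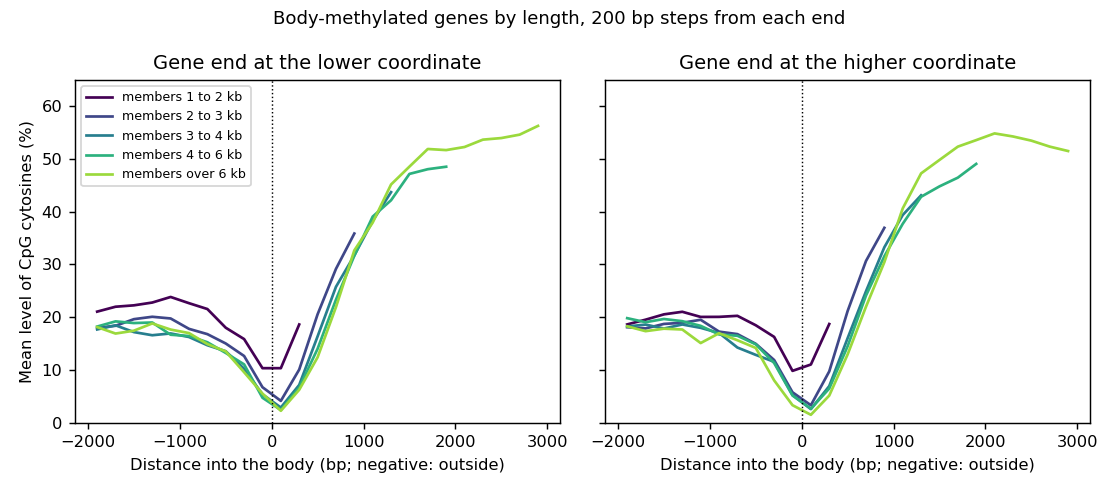
Mean level of CpG cytosines (%, y axis) in 200 bp steps from the lower (left) and the higher coordinate (right) of body-methylated genes of 5 length classes (colours), against the distance into the body (x axis, bp, negative values outside the gene). All classes over 2 kb have their minimum in the first 200 bp inside and rise from there, earlier in the shorter classes. At 600 to 800 bp from the lower coordinate they lie between 21.9% (over 6 kb) and 29.2% (2 to 3 kb).

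Most of the measured genes had both 300 bp ends unmethylated. An end was the 300 bp inside the coordinate, in genes of at least 1000 bp with at least 4 covered cytosines in each end, and it was called unmethylated below 10%. Of 9450 genes long enough, 8712 could be measured, and both ends were unmethylated in 6543 (75.1%), where the share over all measured genes was 84.1% and that over the genes below 10% was 94.0%. The share depended on the window, with 84.0% of 6861 genes at 200 bp and 50.2% of 9387 genes at 500 bp, which reaches into the rise described above. Most genes with unmethylated 300 bp ends were far below the limit. Both ends were under 2% in 6110 of the 8712 measured genes (70.1%), where 6543 had both ends below 10%. Above 60%, 20 of 493 genes (4.06%) had both ends unmethylated. The ends are part of the body whose level chose the genes, so these shares are a description.

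In 2077 genes (23.8%) a single end was methylated, the lower in 1062 and the higher in 1015, and in 92 (1.06%) both were. The DNA next to these genes differed too, and it was not part of the rule. The 500 bp flanks were at 7.55% beside genes with both ends unmethylated, 21.0% with 1 methylated end and 26.5% with both. In the 2033 genes with 1 methylated end and both flanks measured, the flank on the methylated side was at 10% or more in 936 (46.0%), and the flank on the other side in 378 (18.6%). Overlap with another annotated locus was also more frequent, 44.9% with 1 methylated end against 32.3% with none. What part of the end methylation belongs to a neighbouring or overlapping locus was not tested.

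The genes with the most methylated lower end are extremes and not typical of such cases. In the 2033 genes above, the flank on the methylated side had a median of 4.44% (quartiles 0.304% to 43.0%). The methylated end was over 60% in 558 of the genes with 1 methylated end. NPQ4, the PsbS protein of photoprotection (chromosome 1, 16870221 to 16873427), was at 96.2% in its lower 300 bp and at 0% in its higher 300 bp, with a body level of 35.3% and a lower flank at 44.5%. Of 5 equal parts of its body, the first was at 95.4%, the second at 68.7% and the other 3 between 0.312% and 4.02%, and the longest run of methylated cytosines was 70. CLPR1, a subunit of the chloroplast Clp protease, had 96.0% at the lower end beside a flank at 80.04%, and 0.215% at the higher end. AT1G43860 (96.5%), AT2G18320 (95.8%) and AT1G56100 (95.5%) completed the 5 genes with the highest lower end, and their flanks on that side were at 64.4%, 33.2% and 93.3%. All 5 thus had a methylated flank on that side, at very different levels. AT1G43860, CLPR1 and AT1G56100 overlap another annotated locus. The lower end of AT1G43860 held 6 covered cytosines and the higher end of NPQ4 held 4. In AT1G43860 the flank beside the unmethylated higher end (0.0535%) was methylated as well, at 92.4%.

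The distance from the gene end to the first methylated cytosine was measured in every gene, with a cytosine called methylated at 25% or more. The shorter of the 2 gaps had a median of 444 bp (quartiles 279 to 646 bp) and the longer a median of 1105 bp (872 to 1383 bp). The longer gap changed little with gene length above 2 kb, from 1098 bp at 2 to 3 kb to 1246 bp at 4 to 6 kb and 1206 bp over 6 kb, and the shorter gap went from 430 bp to 579 bp. Long genes therefore kept unmethylated ends of similar size and had more interior between them.

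Between the first and the last methylated cytosine lay a median of 1281 bp, or 45.5% of the body, and 66.7% of the cytosines there were methylated. The share of the body spanned rose from 28.3% in genes of 1 to 2 kb to 75.9% over 6 kb. Within the span, the share of methylated cytosines was 75.9% at 1 to 2 kb and 64.6% over 6 kb. The centre of the methylated reads lay at a median of 50.1% of the body and between 35% and 65% in 6232 genes (64.3%). In 494 genes it lay below 25% and in 447 above 75%. Without strand, these values cannot show whether methylation lay nearer the transcription start or the transcription end.

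Inside the span, methylated cytosines formed runs broken by unmethylated ones. The 9696 genes held 63287 runs, with a median of 5 per gene and of 6 cytosines per run, counted over both strands. Single cytosines made up 2.30% of the runs, and runs of 20 or more held 27.1% of the methylated cytosines. The longest run of a gene had a median of 16 cytosines. In runs of at least 10, the first and last CpG had a median level of 90.3% and the interior 91.8%, and 16.02% of the edge cytosines were at 25% to 75% against 9.65% of the interior ones. Intermediate levels were thus more frequent at the edge of a run, while the median level there was close to that of the interior.

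A few genes departed from this pattern by a long unbroken block. In 259 genes (2.67%) the longest run had at least 50 cytosines, and these genes had a median length of 3740 bp and a median level of 42.6%. The longest run, 366 cytosines, was in AT1G58602 (chromosome 1, 21746354 to 21766048), where the second of 5 equal parts of the body was at 90.4% and the last at 1.04%. AT2G34100 had a run of 258 and AT3G05410 a run of 144. All 3 overlap another annotated locus. The rule uses CpG only, CHG and CHH methylation was not analysed here, and so genes with CG methylation alone cannot be told apart from genes that carry a transposon-like block in all contexts.

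The genes with the most covered cytosines were long, from 11211 bp in AT3G60961 to 27265 bp in ATM, and 8 of the 10 had a body level above 50%. AT1G48090 (chromosome 1, 17732010 to 17758508) had 930 cytosines at 56.5% (56.1% to 57.0%), with 0% and 0.0573% in its lower and higher 300 bp. AT1G67120, the ribosome assembly ATPase midasin, had 910 at 54.2%, and ATM, a kinase of the DNA damage response and the longest gene, had 826 at 50.97%. BIG, which acts in auxin transport, had 792 at 53.7%, and TOR, the growth-regulating kinase, had 734 at 58.6%. AT4G17140 (51.1%), AT2G17930 (53.8%) and AT1G58602 (59.3%, with its run of 366 cytosines) were also above 50%. TIL1, the catalytic subunit of DNA polymerase epsilon, was at 28.6% over 749 cytosines with its first methylated cytosine 2827 bp from the lower coordinate, and AT3G60961 was at 20.2% over 718. All 10 had both ends below 3%, with the highest at 2.03%.

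Among genes with both ends unmethylated and at least 100 cytosines, the largest share of cytosines above 75% was 64.8%, in AT2G34100. It was followed by ITN1, which acts in salt tolerance (64.3%), FAS4 (64.2%), AT3G05410 (63.5%) and MSH1, which guards organelle genomes against recombination (63.3%). MSH1 (chromosome 3, 8822924 to 8829728) had 0.238% and 0.257% in its ends and 81.9% in the second of 5 equal parts of its body, with a longest run of 36. In ITN1 and MSH1 the same share was thus reached by runs of 32 and 36 cytosines that AT2G34100 and AT3G05410 reached with blocks of over 100.

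The 2 genes with the most cytosines at the median level are shown cytosine by cytosine, and both are far longer than the median body-methylated gene. GSL09, a glucan synthase-like protein (chromosome 5, 14518008 to 14534060), had 494 cytosines at 23.7%, and SECA2, a chloroplast protein translocation ATPase (chromosome 1, 7592664 to 7604229), had 476 at 23.5%. In GSL09 the 5 equal parts of the body were at 10.102%, 61.5%, 50.9%, 4.96% and 3.41%. In SECA2 they were at 12.3%, 59.0%, 48.1%, 12.2% and 12.9%. SECA2 had its methylation in short patches over 83.0% of the body with a longest run of 24, and GSL09 had a run of 102.

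**Figure D3:**
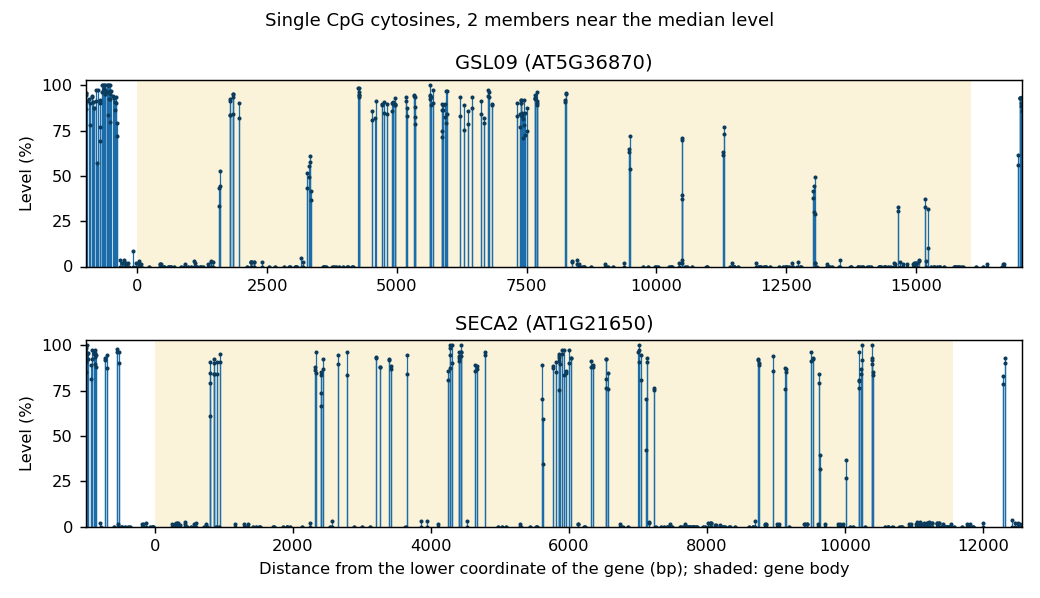
Methylation level (%, y axis) of every covered CpG cytosine in GSL09 (23.7%) and SECA2 (23.5%), as stems with a point at the level, against the distance from the lower coordinate (x axis, bp), with the gene body shaded and 1000 bp on each side. Near both ends of the body the points lie at the floor, and in between highly methylated patches alternate with unmethylated CpGs, with 39 of 494 cytosines at 25% to 75% in GSL09 and 12 of 476 in SECA2. The first methylated cytosine lies 1574 bp into GSL09 and 804 bp into SECA2.

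Single cytosines in these genes were mostly either unmethylated or almost fully methylated. Of their cytosines, 66.9% were below 10%, 0.666% from 10% to 25%, 4.78% from 25% to 75% and 27.7% above 75%. The methylated ones had a median level of 90.6% (quartiles 83.3% to 94.7%). Over all nuclear cytosines the share from 25% to 75% was 3.81%, and in the genes below 10% and above 60% it was 1.39% and 6.66%.

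The body level moved with the number of methylated cytosines, and little with how strongly each was methylated. From the genes at 10% to 20% to those at 50% to 60%, the share of methylated cytosines went from 18.3% to 60.3%, which the rule fixes in large part. The median level of the methylated cytosines went from 86.0% to 92.7%, and the share of cytosines at 25% to 75% stayed between 4.595% and 4.96%.

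**Figure D4:**
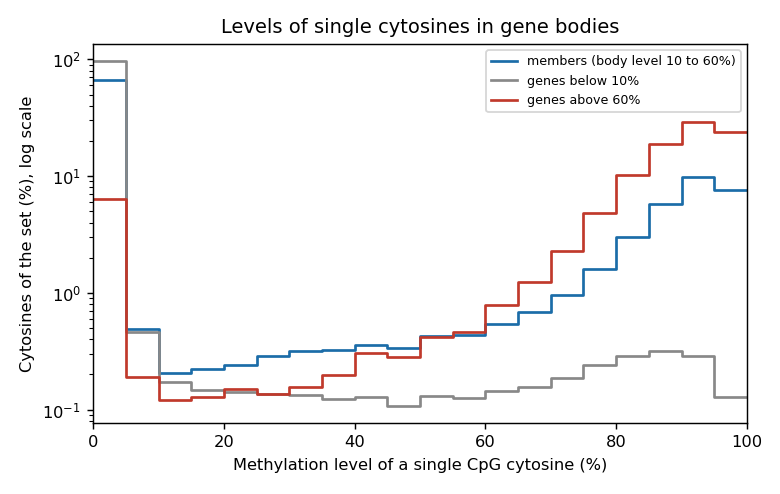
Share of cytosines (%, y axis, log scale) by the methylation level of the single CpG cytosine (x axis, %, steps of 5) in the body-methylated genes (blue), the genes below 10% (grey) and the genes above 60% (red). The body-methylated genes have a peak on each side, with 66.9% of cytosines below 10% and 27.7% above 75%, and few between.

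Both strands of a CpG nearly always had the same state. Among 752954 CpGs with both cytosines covered, both were methylated in 243225 and a single one in 2852 (0.379%), so that 99.4% of methylated cytosines had a methylated partner. When both were methylated their levels differed by a median of 4.10 percentage points. Over all nuclear CpGs the share with a methylated partner was 99.6% and this median was 4.47 percentage points. Over whole genes, the plus and minus strands differed by a median of 1.58 percentage points (95th percentile 5.47). Of 9668 genes whose plus strand alone was in the range, 9350 (96.7%) were also in the range on the minus strand. The minus strand holds the partner cytosines of the same CpGs in the same pooled DNA. This share therefore follows from the likeness of the pairs and is no independent check of the choice of genes. In 35 genes the strands differed by more than 10 percentage points, most of all in AT2G01035 (12.4% on plus, 98.4% on minus, median depth 11) and AT2G01045 (7.38% and 72.7%), both near the end of chromosome 2.

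The bases next to the CpG went with its level. Read 5′ to 3′ with the CpG in capitals, the 4 bases are shown because the deposited report gives the base after each CpG on both strands, and a context and its reverse complement are counted together. Over the whole body, cytosines in CGT were at 21.0%, against 30.2% in CGA, 31.2% in CGC and 30.8% in CGG. In the central 50% of the body the highest of the 10 contexts was tCGa at 51.1% (38124 CpGs), followed by gCGa (49.7%), cCGa (49.6%), cCGc (48.3%), gCGc (46.7%) and cCGg (44.6%). The contexts that begin with a were lower, with aCGa at 36.3%, aCGg at 35.5% and aCGc at 32.6%, and the lowest was aCGt at 20.7% (23243 CpGs). Median depth ranged from 114 to 119 reads per CpG over these contexts.

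The order at the 2 extremes held at both distances to the next CpG. With the nearest other CpG within 25 bp, tCGa was at 56.9% and aCGt at 28.8%, and with it farther away they were at 38.9% and 8.65%. In the genes above 60%, tCGa (69.4%) and aCGt (69.8%) were alike and cCGc was highest (87.1%). The other contexts that begin with a were low there too, between 72.5% and 79.0%, against 82.6% to 87.1% for those that begin with c or g. Several contexts changed place in the order, most of all tCGa, which went from the highest to the lowest. Within the contexts that begin with a, aCGc (79.0%) lay above aCGa (75.6%) there. The lower level of CGT was not particular to these genes, since over all nuclear cytosines CGT was at 21.3% and the other 3 contexts between 28.2% and 29.5%.

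Neighbouring CpGs shared their state over short distances. When a cytosine was methylated, the next CpG was methylated in 95.1% of cases at 2 to 10 bp, 85.4% at 11 to 25 bp, 62.3% at 26 to 50 bp and 51.2% at 51 to 100 bp. When it was unmethylated, the next was methylated in 2.87%, 7.996%, 15.9% and 20.02%.

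Over longer separations the likeness did not fall evenly. Given a methylated cytosine, any second cytosine on that strand of the gene was methylated in 92.1% of pairs 1 to 20 bp apart and in 61.0% of pairs 81 to 100 bp apart. It then rose to 67.7% at 161 to 180 bp and fell to 54.3% at 281 to 300 bp. A smaller rise to 55.001% followed at 321 to 340 bp, and at 581 to 600 bp the share was 44.4%. The minus strand gave 67.6% at 161 to 180 bp and the plus strand 67.7%, although both strands hold the same CpGs and are no independent check. The reason for the maximum at 161 to 180 bp was not tested.

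**Figure D5:**
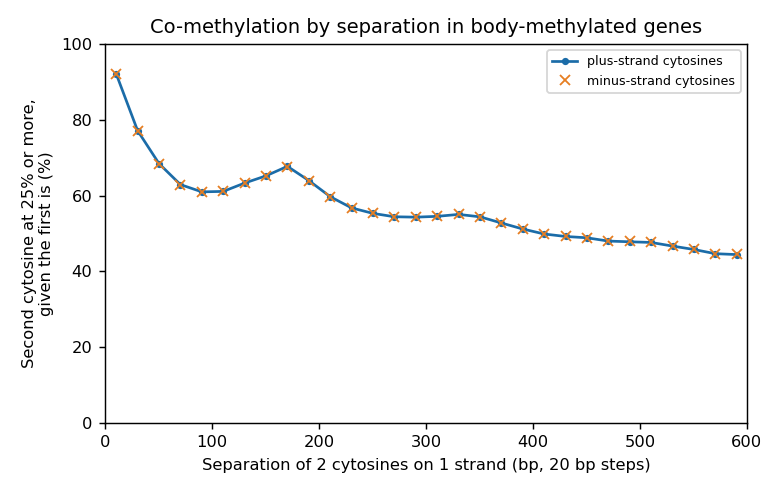
Share of second cytosines methylated at 25% or more when the first is (%, y axis), against the separation of the 2 cytosines on 1 strand (x axis, bp, 20 bp steps), for plus-strand (blue line) and minus-strand cytosines (orange crosses) of body-methylated genes. The share falls from 92.1% to 61.0%, rises to 67.7% at 161 to 180 bp and has a low second rise to 55.001% at 321 to 340 bp.

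CpG cytosines were sparser in the centre of the body than in its outer parts. In body-methylated genes of 3 to 4 kb, the central 50% of the body held a median of 39.2 CpG cytosines per kb and the outer parts 50.9, and the centre was sparser in 76.6% of genes. Genes of that length below 10% had 42.6 per kb in the centre and 54.0 in the outer parts, with a sparser centre in 67.4%. The lower density of the interior was therefore found in both sets and was somewhat more frequent in the methylated one.

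The genes were spread over the genome. They made up 37.4%, 35.4%, 35.5%, 37.6% and 37.4% of the classed genes of chromosomes 1 to 5. In 111 windows of 1 Mb with at least 50 classed genes, the share had a median of 37.1% and ranged from 9.62% to 54.8%. The gene after a body-methylated gene was body-methylated in 43.3% of cases, against 32.9% after another gene, and the longest row held 12. Neighbours that overlap share cytosines and were not left out of this count. Of the body-methylated genes 35.1% overlap another annotated locus, against 25.2% of the genes below 10%. What part of the likeness goes with overlap was not tested.

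Families were counted by words in the symbols and synonyms of the annotation, so each count holds a part of its family. A count can also hold genes of other families with like names, and the matches were not checked gene by gene. This bears most on small counts, such as ethylene-responsive factors and disease resistance proteins. Beside each stands the share over all genes with the same lengths. High shares were found for kinesins, the motor proteins of microtubules, with 19 of 20 (79.9% by length), for pentatricopeptide repeat proteins, which bind organelle RNA, with 11 of 12 (33.5%), for helicases with 21 of 23 (67.4%) and for aminoacyl-tRNA synthetases, which charge tRNAs, with 9 of 10 (68.1%). Proteasome subunits had 22 of 31 (45.6%) and DNA or RNA polymerases 30 of 43 (59.7%). All 6 lay above the share for their length, by the widest margin in the pentatricopeptide repeat proteins.

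The families with the lowest shares were mixed in function. MYB transcription factors had 9 of 119 (26.4% by length), NAC factors 16 of 104 (32.6%), WRKY factors, many of them active in defence, 16 of 67 (33.4%) and ethylene-responsive factors 3 of 30 (17.3%). Expansins, which loosen cell walls, had 3 of 37 (21.3%), cytochromes P450 54 of 229 (34.4%), defensins 4 of 51 (11.8%) and histones 1 of 32 (14.4%). Thionins had 0 of 2 (16.6%). ABC transporters (61 of 123, 65.8% by length), receptor-like kinases (66 of 147, 51.5%) and ribosomal proteins (10 of 66, 20.3%) also lay below their length class, and SAUR genes (11 of 75, 10.2%) and F-box genes (15 of 31, 30.9%) above it. Peroxidases had 7 of 35 (32.3% by length), disease resistance proteins 7 of 13 (63.3%) and myosins 15 of 23 (76.7%), all below their length class. Heat shock proteins (16 of 33, 49.8%) and importins or exportins (7 of 11, 64.6%) were close to it, and chlorophyll a-b binding proteins (4 of 18, 16.6%) and ubiquitin ligases (9 of 13, 60.5%) were above it by about 1 gene. No test was made of any family.

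Listed genes linked to DNA methylation were on both sides of the lower limit. The list covers CG maintenance, CHG methylation, histone methylation and its removal, DNA demethylation, linker histones, and a histone variant with its deposition complex. Of 18 listed, 9 (50%) were body-methylated and 9 were below 10%, where the share was 36.8% over all classed genes and 57.1% over genes of the same lengths. Of the maintenance genes, VIM1 (11.2%) and the remodeller DDM1 (18.05%) were in the range and MET1 was just below it (9.17%, 1402 of 15282 reads). CMT3 was at 8.49%, while its partner SUVH4, a histone methyltransferase, was at 44.2% and overlaps another locus, and IBM1 was at 30.3%. Of the DNA demethylases, ROS1 (25.5%) and DME (28.2%) were in the range, and DML2 (4.58%) and DML3 (0.475%) were not.

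For the histone variant H2A.Z, which is depleted from methylated DNA, HTA9 was at 13.2%, HTA11 at 7.30% and HTA8 at 5.89%. Of the SWR1 complex that deposits it, PIE1 was at 50.9%, SWC6 at 18.2% and ARP6 at 2.16%. SWC6 had 38.6% in its lower 300 bp beside a flank at 60.2%. The linker histone genes AT1G06760 and AT2G30620 were at 0.287% (22 of 7654 reads) and 0.0697% (3 of 4302 reads). Paralogs with a shared role thus differed widely in level, as ROS1 and DML3 did.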

How the data were processed

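Leaf DNA of 12 libraries was converted enzymatically and sequenced in pairs. According to the study's methods, reads were filtered with Trimmomatic and aligned to TAIR10.1 with Bismark and Bowtie 2, only unique alignments were kept, duplicates were removed and biased read ends were trimmed. For the CpG context the authors deposited raw counts of methylated and of unmethylated reads per cytosine and strand, pooled over libraries that are not named and without normalization. Repeated sequence that aligned at 1 place can thus inflate depth.

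Counts were summed per gene of the RefSeq annotation of TAIR10.1, in a copy without strand or exons, so that ends are named by coordinate and no exon, intron or UTR was assigned. No reference sequence was used. Levels are methylated over all reads, with 95% Wilson intervals, except that steps from gene ends are means of cytosine levels. The level of the middle 500 bp needed 8 cytosines. Genes named were the 10 with the most cytosines, the 3 nearest each limit on both sides, and the 5 with the highest lower end. Others were the 5 with the largest share of cytosines above 75% among those with unmethylated ends and at least 100 cytosines. A list of 18 genes linked to DNA methylation and 2 genes at the median level were also named. Members, lists and families were chosen with earlier results of these data known. The alternatives were a depth minimum of 10, the deepest cytosines left out, strands summed, means of cytosine levels, 30 cytosines, other level ranges, end windows, end levels and bins, other limits of a methylated cytosine, and no overlapping loci. The scripts ran in Python 3.11.15 with pandas 2.3.3 and numpy 2.4.6, intervals came from scipy 1.17.1 and plots from matplotlib 3.10.9, and the calculations were tested on simulated data. CHG and CHH contexts and single libraries were not analysed here.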

Additional observations from a re-analysis of the deposited data

How the results depend on the processing

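Of 32 alternatives to 6 summary values, 26 stayed within the tolerance, which was 1.5 times for counts, 5 percentage points for the position of the maximum and the 95% interval of the value otherwise. Leaving out genes that overlap another annotated locus lowered the number of body-methylated genes from 9696 to 6294, of 18870 that could be classed (33.4%), and moved the share of cytosines at 25% to 75% from 4.78% to 4.88%. That share was 4.57% with both strands of a CpG summed and 6.67% with limits of 20% and 80%. A body level from 5% to 60% gave 12155 genes and a median length of 2861 bp in place of 3014 bp. With methylated cytosines at 50% or more, 98.9% in place of 99.4% had a methylated partner. The number of genes with both ends unmethylated ranged from 4430 (78.8% of 5625 measured, without overlapping loci) to 6570 (75.2% of 8731), with 4716 (50.2% of 9387) for 500 bp ends, and the maximum lay between 47.5% and 55% of the body. Every covered cytosine had at least 5 reads, and a minimum of 10 left the number of genes at 9696. Weighted by reads instead of as a mean over cytosines, which was chosen for the steps from gene ends after the data were seen, the first 200 bp inside the lower coordinate of genes of 1 to 2 kb were at 17.5% and not 10.3%. No paired analysis was possible because 1 table of merged libraries holds no replicates. Depth limits single cytosines, at a median of 58 reads, more than gene levels.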

Other observations

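A small set of the genes held partly methylated cytosines, and the genes named here were chosen after their values were seen. In 20 of 9696 genes (0.206%; median length 936 bp) more than 50% of the cytosines were at 25% to 75%, and in 79 (0.815%) none was above 75%. AT4G20670 (chromosome 4, 11092581 to 11093621) was at 59.4% over 62 cytosines, of which 83.9% were at 25% to 75%, at a median depth of 59.5 reads. In AT2G10940 (chromosome 2, 4310321 to 4312162), at a median depth of 49 reads, the lower 2 of 5 parts of the body were at 0% and the others at 34.9%, 49.3% and 39.4%. In both the depth was close to that of the other genes.

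In 3 further genes of this kind the depth was far above the rest. AT3G41762 was at 34.3% with a median depth of 14258 reads, AT2G01008, near the end of chromosome 2, at 23.0% with 4133 reads, and AT2G16586 at 40.4% with 1105 reads. What part of these levels goes with the depth was not tested.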
